A study of Mus musculus with 12 samples.

Results

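The integrated stress response genes around Atf4 were examined in E14 mouse embryonic stem cells. The set held 10 genes, found by symbol among 24421 gene rows of the count table: Atf4, Atf5, Ddit3, Trib3, Chac1, Sesn2, Asns, Stc2, Eif2ak4 and Ddit4. All 10 passed the filter on low counts, which 15281 genes passed. Polyadenylated RNA was sequenced from 12 samples in 4 groups of 3. The groups were Mettl3-KO cells paused with INK128 (KO paused), Mettl3-KO cells in control medium (KO FBS), wild-type cells paused with INK128 (WT paused) and wild-type cells in control medium (WT FBS). All cells grew on gelatin in medium with serum and the cytokine LIF, and the paused cells received 200 nM INK128, an inhibitor of the mTOR kinase, for 2 weeks. Mettl3 is the catalytic subunit of the enzyme that writes N6-methyladenosine on messenger RNA. The labels do not say whether the knockout is 1 clone, which part of the gene was targeted, or whether replicates are separate cultures, so p-values measure only the spread between these samples.

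In the integrated stress response, kinases that sense amino acid shortage, misfolded protein, haem shortage or double-stranded RNA phosphorylate the translation factor eIF2. Bulk translation then falls while the message of Atf4 is translated more, and Atf4 turns on genes for amino acid synthesis, transport and the charging of transfer RNAs. In stem cells and other growing cells Atf4 also acts downstream of mTORC1, the growth-promoting complex of mTOR. Much of this control acts on translation and protein stability, which counts of RNA do not measure.

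Total counts lay between 10615548 and 39566713 per library. The Mettl3 message, counted over the whole gene, was lower in KO cells, with a log2 difference of −0.25 ± 0.10 for KO paused against WT paused cells and −0.32 ± 0.10 for KO FBS against WT FBS cells (SE, adjusted p = 0.0467 and 0.0134, edgeR). All 9 stem cell markers examined, such as Pou5f1 and Nanog, were detected in each group, and their summed level was 3044 to 3340 CPM (read counts scaled to a common library size, TMM) in KO paused, 2125 to 2501 in KO FBS, 5575 to 6014 in WT paused and 4481 to 5046 in WT FBS cells. Summed markers of other cell types were 55.9 to 64.0 CPM in KO paused, 194 to 249.5 in KO FBS, 32.2 to 48.2 in WT paused and 47.2 to 74.1 in WT FBS cells for trophoblast (9 genes). For extraembryonic endoderm (9 genes) they were 25.2 to 26.6 in KO paused, 28.3 to 32.0 in KO FBS, 14.2 to 20.5 in WT paused and 50.7 to 104 CPM in WT FBS cells. Neural progenitor markers (7 genes) summed to 69.1 to 81.1 CPM in KO paused, 70.1 to 78.0 in KO FBS, 126 to 165 in WT paused and 46.1 to 89.0 in WT FBS cells. Fibroblast markers (8 genes) summed to 5.63 to 7.19 CPM in KO paused, 16.7 to 22.1 in KO FBS, 1.96 to 2.73 in WT paused and 9.47 to 16.5 in WT FBS cells. Plac1, Six3, Neurog2 and Postn were at 0 in WT paused cells, and Lum in both WT groups. The part of these markers in the results was not tested. WT FBS replicate 1 stood apart. In it, 1201 of 15281 genes differed over 2-fold from the mean of its 2 group mates, against 0 to 125 genes in each of the other 11 libraries. Many results that rest on it are therefore given with and without it.

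The promoters of 3 of the 10 genes hold the core of the C/EBP-ATF response element, the sequence through which Atf4 and its partners bind many of their targets. The windows ran from 250 bases before to 50 bases after the RefSeq start site (build GRCm38.p6), and the motif was TGATGNAA on either strand. It was found in 4.51% of the 27025 genes with such a window. In Chac1 it lay 193 to 186 bases before the start site and in Asns 23 to 16 bases before it, while in Trib3 it lay 14 to 21 bases after it. The palindromic cAMP response element TGACGTCA was in 1.79% of all windows and in 0 of the 12 windows of these genes. The endoplasmic reticulum stress element was in 0.119% of all windows and also in 0 of the 12. Ddit4 and Stc2, which also fell on pausing in WT cells relative to the typical gene (−2.19 and −2.12), held none of these motifs. The matches to TGATGNAA are shown because their genes include the 2 with the strongest fall on pausing in WT cells and the standard reporter of the amino acid response. The motif is in capitals as it reads on the strand of the gene.
Chac1 upstream (chr2:119350992-119351241, plus strand): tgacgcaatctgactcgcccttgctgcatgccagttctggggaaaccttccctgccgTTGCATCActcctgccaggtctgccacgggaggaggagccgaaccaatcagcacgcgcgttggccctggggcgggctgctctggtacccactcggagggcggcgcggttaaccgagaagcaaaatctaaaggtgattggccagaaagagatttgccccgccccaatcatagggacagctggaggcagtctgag
Asns upstream (chr6:7693210-7693459, minus strand): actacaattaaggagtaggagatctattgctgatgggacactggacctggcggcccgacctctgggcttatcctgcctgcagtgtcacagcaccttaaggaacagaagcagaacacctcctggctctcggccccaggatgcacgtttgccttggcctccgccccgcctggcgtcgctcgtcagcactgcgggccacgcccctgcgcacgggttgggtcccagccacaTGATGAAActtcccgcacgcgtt
Trib3 site (chr2:152344028-152344057, minus strand): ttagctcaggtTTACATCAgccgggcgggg
A match describes these letters only, and no binding was measured.

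Pausing lowered most of these messages in WT cells, relative to the typical gene. On the same scale, KO cells in FBS already held Atf4, Atf5, Ddit3, Chac1 and Asns below WT FBS cells. Per cell Asns missed the threshold there (−0.50 ± 0.32, adjusted p = 0.251, edgeR), and the Chac1 ranges overlapped on both scales. Pausing in KO cells lowered only part of the set, and relative to the typical gene it raised Stc2 and Atf5, which it lowered in WT cells, whereas per cell neither passed the threshold in KO cells and Atf5 lay below 0. The values of each gene follow by role, in CPM of replicates 1, 2 and 3, and the plot of levels by library shows them all.

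**Figure D1:**
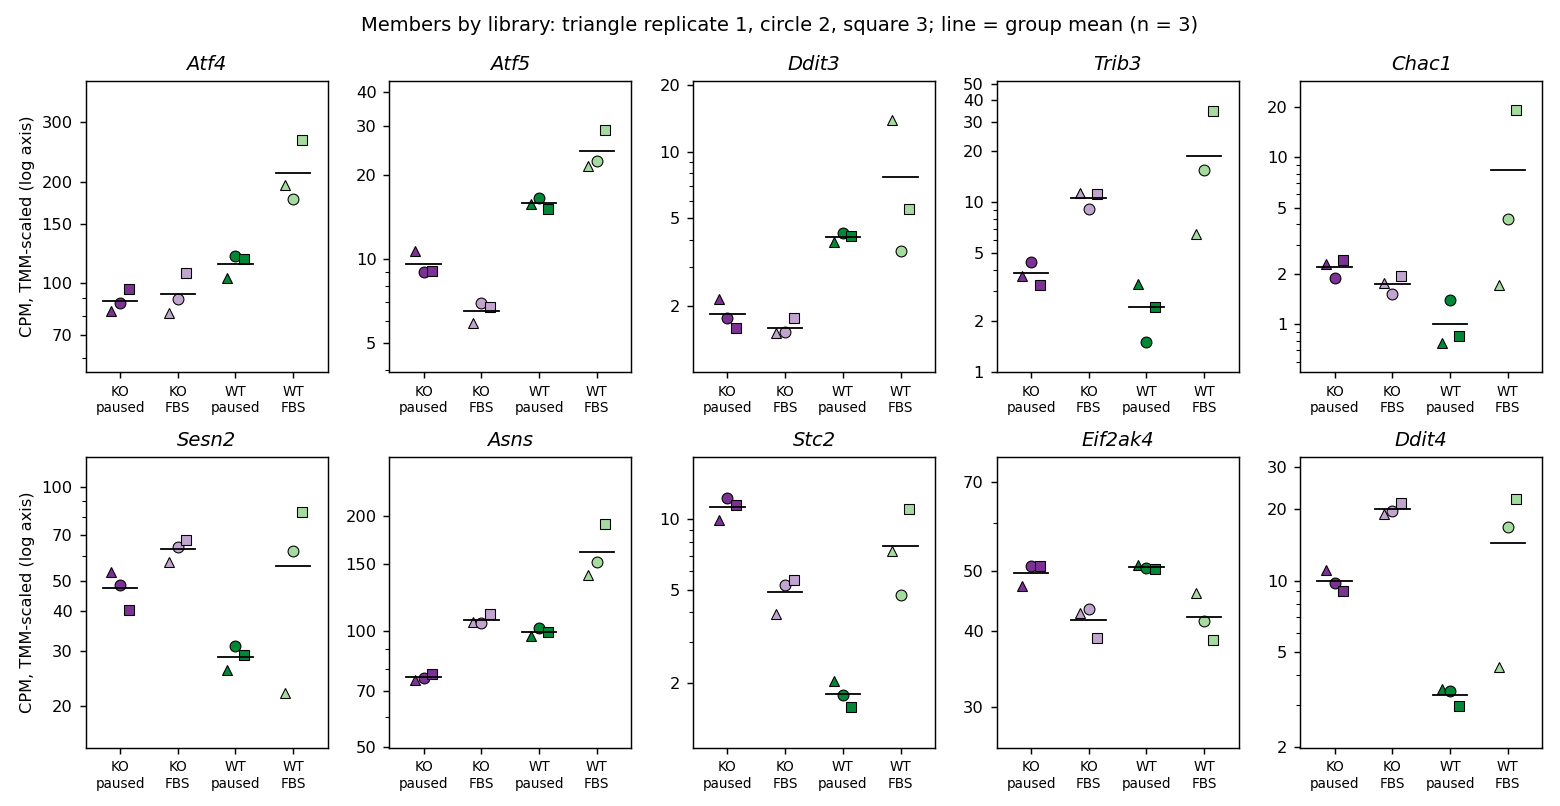
Level of each of the 10 genes in every library, in TMM-scaled CPM on a log axis, for KO paused, KO FBS, WT paused and WT FBS cells (marker shape gives the replicate, lines are means of 3). The WT FBS libraries spread most in Trib3, Chac1, Sesn2, Ddit3 and Ddit4, and Stc2 is highest in KO paused and lowest in WT paused cells.

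Atf4 (chromosome 15, 80255184 to 80257541, plus strand, GRCm38, GENCODE vM21 as for the genes below) encodes the transcription factor at the centre of the response. It stood at 82.4, 87.0 and 96.2 CPM in KO paused, 81.6, 89.4 and 107 CPM in KO FBS, 104, 120.5 and 118 CPM in WT paused, and 195, 177 and 265 CPM in WT FBS cells. The WT FBS libraries lay above all 9 others, and the KO paused and KO FBS ranges overlapped. Pausing changed Atf4 by −0.07 ± 0.15 on the log2 scale in KO cells (adjusted p = 0.741) and by −0.90 ± 0.15 in WT cells (SE, adjusted p = 0.000732, edgeR). The difference between these pausing effects was 0.83 ± 0.21 (adjusted p = 0.0166). Per cell it was 1.10 ± 0.45 and missed the threshold (adjusted p = 0.161). It passed per cell with the replicate block (1.19, adjusted p = 0.00351) or without KO FBS replicate 2 (1.34, adjusted p = 0.0215). Atf4 was lower in KO FBS than in WT FBS cells (−1.20 ± 0.15, adjusted p = 2.31e-05). Between the paused groups its ranges did not overlap, but −0.37 ± 0.15 missed the threshold (adjusted p = 0.0532). The fit with the replicate number as a block called it (−0.37, adjusted p = 0.0106), as did the fits without WT FBS replicate 2, WT FBS replicate 3 or KO FBS replicate 3 (adjusted p = 0.034, 0.0173 and 0.0482).

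Atf5 (chromosome 7, 44812256 to 44816658, minus strand) encodes a related factor whose message is also translated under stress. It had 10.7, 8.98 and 9.05 CPM in KO paused, 5.88, 6.96 and 6.70 CPM in KO FBS, 15.8, 16.6 and 15.2 CPM in WT paused, and 21.7, 22.4 and 29.1 CPM in WT FBS cells. None of the 4 ranges overlapped, with KO FBS lowest and WT FBS highest. Atf5 rose on pausing in KO cells (0.55 ± 0.14, adjusted p = 0.00606) and fell in WT cells (−0.63 ± 0.13, adjusted p = 0.0031, edgeR). Scaled per cell, the KO value was −0.23 ± 0.33 and missed the threshold (adjusted p = 0.578). The pausing effects differed by 1.18 ± 0.19 (adjusted p = 0.00144). The genotype difference was −0.72 ± 0.14 when paused (adjusted p = 0.000694) and −1.91 ± 0.14 in FBS (adjusted p = 2.75e-07). Of its exons, 82 bases (4.11%) overlap Il4i1 and Nup62 on the other strand, and the strand setting of the counting is not given in the sources used here.

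Ddit3 (chromosome 10, 127290774 to 127296288, plus strand) encodes CHOP, a factor that promotes cell death when stress persists. It had 2.15, 1.77 and 1.58 CPM in KO paused, 1.5, 1.52 and 1.76 CPM in KO FBS, 3.89, 4.28 and 4.16 CPM in WT paused, and 14, 3.54 and 5.48 CPM in WT FBS cells. Every KO library lay below every WT library. WT FBS replicate 1 was 1.63 log2 units above the mean of its group mates. Ddit3 was lower in KO paused than in WT paused cells (−1.18 ± 0.42, adjusted p = 0.0324) and lower in KO FBS than in WT FBS cells (−2.17 ± 0.40, adjusted p = 0.000553, edgeR). The difference in FBS was −1.46 without WT FBS replicate 1 (adjusted p = 1.89e-06). The difference between paused groups was lost without any of WT paused replicates 1, 2 or 3 or KO paused replicates 2 or 3 (−1.21 to −1.07, adjusted p = 0.0591 to 0.0995). Pausing gave 0.19 ± 0.43 in KO cells (adjusted p = 0.75) and −0.81 ± 0.39 in WT cells (adjusted p = 0.121). Without WT FBS replicate 1 the WT value was −0.13 (adjusted p = 0.591), and without WT FBS replicate 2 it was −1.18 and passed (adjusted p = 0.017). Ddit3 shares 68 exonic bases (3.97%) with Mars on the other strand, and 105 (6.13%) with another annotated gene of the same symbol.

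Eif2ak4 (chromosome 2, 118388618 to 118475234, plus strand) encodes GCN2, the eIF2 kinase that senses uncharged transfer RNA. It stood at 47.3, 50.9 and 50.9 CPM in KO paused, 42.7, 43.3 and 38.9 CPM in KO FBS, 51.2, 50.6 and 50.3 CPM in WT paused, and 46.1, 41.5 and 38.7 CPM in WT FBS cells. Both paused groups lay above both FBS groups, and the genotypes overlapped in FBS. Its relative level rose on pausing by 0.26 ± 0.09 in KO cells and 0.27 ± 0.09 in WT cells (adjusted p = 0.0301 and 0.0274, edgeR). Scaled per cell the direction turned, to −0.50 ± 0.32 in KO cells (adjusted p = 0.177) and −0.75 ± 0.32 in WT cells (adjusted p = 0.029). The relative rise in KO cells was lost on leaving out any KO FBS library, replicate 2 or 3 of KO paused, or replicate 3 of WT paused cells (0.21 to 0.29, adjusted p = 0.0511 to 0.123). The rise in WT cells was lost on leaving out replicate 2 or 3 of WT FBS or any WT paused library (0.21 to 0.27, adjusted p = 0.0637 to 0.114), and the per-cell fall in WT cells on leaving out any WT FBS library, or replicate 1 or 3 of WT paused cells (−0.76 to −0.60, adjusted p = 0.059 to 0.132). The genotypes differed by −0.03 ± 0.09 when paused and −0.01 ± 0.09 in FBS (adjusted p = 0.807 and 0.918).

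Trib3 (chromosome 2, 152337422 to 152344032, minus strand) encodes a pseudokinase that Atf4 induces and that feeds back on it. It had 3.67, 4.47 and 3.26 CPM in KO paused, 11.4, 9.18 and 11.1 CPM in KO FBS, 3.31, 1.49 and 2.39 CPM in WT paused, and 6.45, 15.5 and 34.7 CPM in WT FBS cells. The lowest FBS library of either genotype lay above the highest paused library of either genotype, and the genotypes overlapped in both conditions. Trib3 fell on pausing in KO cells (−1.48 ± 0.44, adjusted p = 0.0171) and in WT cells (−3.02 ± 0.50, adjusted p = 0.000717, edgeR). The KO fall was lost without KO paused replicate 1 (−1.46, adjusted p = 0.0526) or 3 (−1.37, adjusted p = 0.0659), and the WT fall was −2.26 without WT FBS replicate 3 (adjusted p = 0.00101). The effects differed by 1.53 ± 0.66, which missed the threshold (adjusted p = 0.132) and passed it without WT FBS replicate 1 (1.88, adjusted p = 0.024). The genotype difference was 0.66 ± 0.52 when paused (adjusted p = 0.314) and −0.87 ± 0.41 in FBS (adjusted p = 0.0846). The difference in FBS passed without WT FBS replicate 1 (−1.22, adjusted p = 0.00598).

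Chac1 (chromosome 2, 119351229 to 119354381, plus strand) encodes an enzyme that breaks down glutathione and is among the most responsive targets of Atf4. It had 2.30, 1.91 and 2.44 CPM in KO paused, 1.76, 1.52 and 1.95 CPM in KO FBS, 0.779, 1.40 and 0.858 CPM in WT paused, and 1.73, 4.30 and 19.1 CPM in WT FBS cells. The WT paused values rest on 8 to 19 counts per library. WT FBS replicate 3 lay far above the other WT FBS libraries, and replicate 1 lay within the KO FBS range. Pausing gave 0.35 ± 0.64 in KO cells (adjusted p = 0.685) and −3.14 ± 0.71 in WT cells (adjusted p = 0.00489, edgeR), and the WT value was −1.72 without WT FBS replicate 3 (adjusted p = 0.00571). The effects differed by 3.49 ± 0.97 (adjusted p = 0.0267). That difference was 2.07 without WT FBS replicate 3 (adjusted p = 0.0139). It was lost on leaving out replicate 1 or 2 of KO FBS, or replicate 1 or 3 of either paused group (3.33 to 3.49, adjusted p = 0.0522 to 0.0811). The genotypes did not overlap when paused, at 1.17 ± 0.77 (adjusted p = 0.223, or 0.0144 without WT FBS replicate 3). Chac1 was lower in KO FBS than in WT FBS cells (−2.32 ± 0.60, adjusted p = 0.00538), at −0.90 without WT FBS replicate 3 (adjusted p = 0.0305).

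Asns (chromosome 6, 7675169 to 7693254, minus strand) encodes asparagine synthetase, the standard reporter of the amino acid response. It stood at 74.8, 75.8 and 77.3 CPM in KO paused, 106, 105 and 111 CPM in KO FBS, 97.5, 102 and 99.8 CPM in WT paused, and 140, 152 and 189.5 CPM in WT FBS cells. None of the 4 ranges overlapped, and KO paused was lowest. Pausing lowered it in KO cells (−0.50 ± 0.10, adjusted p = 0.00171) and in WT cells (−0.69 ± 0.10, adjusted p = 0.000348, edgeR), and the difference of 0.19 ± 0.14 missed the threshold (adjusted p = 0.387). It was lower in KO than in WT cells when paused (−0.39 ± 0.10, adjusted p = 0.00574) and in FBS (−0.58 ± 0.10, adjusted p = 0.000309). The 49 tested genes nearest to Asns on chromosome 6 had medians of 1.04 and 0.89 in these genotype comparisons, so Asns went the other way from its neighbours. Among the other 9 genes the neighbours' medians for the genotype comparisons lay between −0.44 (Atf4, in FBS) and 0.17.

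Sesn2 and Ddit4 encode inhibitors of mTORC1 that stress induces. Sesn2 (chromosome 4, 132492032 to 132510501, minus strand), a leucine sensor, had 53.3, 48.5 and 40.6 CPM in KO paused, 57.6, 64.1 and 67.8 CPM in KO FBS, 26.1, 31.1 and 29.0 CPM in WT paused, and 22.1, 62.3 and 83.1 CPM in WT FBS cells. Ddit4 (chromosome 10, 59949669 to 59951834, minus strand), also called REDD1, had 11.1, 9.72 and 9.08 CPM in KO paused, 19, 19.6 and 21.2 CPM in KO FBS, 3.51, 3.44 and 2.98 CPM in WT paused, and 4.33, 16.7 and 22.1 CPM in WT FBS cells. In the paused state both genes lay higher in every KO library than in every WT library. WT FBS replicate 1 was low in both, and for Sesn2 it lay below all WT paused libraries.

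Ddit4 fell on pausing in KO cells (−1.0 ± 0.35, adjusted p = 0.037) and in WT cells (−2.19 ± 0.41, adjusted p = 0.0017, edgeR). The KO fall was lost without any KO library or WT paused replicate 1 or 2 (−1.09 to −0.94, adjusted p = 0.0509 to 0.11). Sesn2 gave −0.41 ± 0.32 in KO cells (adjusted p = 0.311) and fell in WT cells (−0.97 ± 0.33, adjusted p = 0.0326). The WT fall was lost on leaving out replicate 2 or 3 of WT FBS or any WT paused library (−1.03 to −0.58, adjusted p = 0.0684 to 0.168). Ddit4 was higher in KO paused than in WT paused cells (1.60 ± 0.42, adjusted p = 0.00634), and Sesn2 gave 0.72 ± 0.33 (adjusted p = 0.0812). In FBS the genotype differences were 0.42 ± 0.35 for Ddit4 and 0.16 ± 0.31 for Sesn2 (adjusted p = 0.318 and 0.681). Without WT FBS replicate 1, Sesn2 passed for pausing in KO cells (−0.44, adjusted p = 0.00377) and for KO paused against WT paused cells (0.73, adjusted p = 0.000129), and for the paused groups also without WT FBS replicate 3 (0.72, adjusted p = 0.0435). The pausing effects differed by 1.18 ± 0.54 for Ddit4 and 0.56 ± 0.45 for Sesn2 (adjusted p = 0.155 and 0.428). Both differences passed without WT FBS replicate 1, at 1.55 for Ddit4 and 0.90 for Sesn2 (adjusted p = 2.71e-06 and 0.000946).

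Stc2 (chromosome 11, 31357307 to 31370074, minus strand) encodes stanniocalcin, a secreted glycoprotein induced by stress of the endoplasmic reticulum and low oxygen. It had 9.94, 12.4 and 11.5 CPM in KO paused, 3.95, 5.23 and 5.49 CPM in KO FBS, 2.04, 1.77 and 1.58 CPM in WT paused, and 7.32, 4.73 and 11 CPM in WT FBS cells. KO paused lay above KO FBS and WT paused, and only WT FBS replicate 3 reached its range. Stc2 rose on pausing in KO cells (1.20 ± 0.25, adjusted p = 0.00214) and fell in WT cells (−2.12 ± 0.31, adjusted p = 0.000309, edgeR). Scaled per cell, its value in KO cells was 0.43 ± 0.34 (adjusted p = 0.281). The effects differed by 3.32 ± 0.40 (adjusted p = 0.000176), and by 2.92 to 3.61 with any library left out. It was higher in KO paused than in WT paused cells (2.67 ± 0.30, adjusted p = 1.29e-05). The difference of −0.65 ± 0.25 in FBS (adjusted p = 0.0442) was lost with the replicate block (−0.61, adjusted p = 0.0518), at −0.25 without WT FBS replicate 3 (adjusted p = 0.357) and without any other library but WT FBS replicate 2 (−0.74 to −0.52, adjusted p = 0.0538 to 0.145).

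Across the set, pausing in KO cells raised 3 genes (Atf5, Stc2, Eif2ak4) and lowered 3 (Trib3, Asns, Ddit4) relative to the typical gene, with Atf5 and Eif2ak4 below 0 per cell, where 42.7% of all tested genes were called, 23.3% higher and 19.4% lower. Pausing in WT cells lowered 8 and raised 1, Eif2ak4, which fell per cell, where 38.2% of all genes were called, 20.2% lower and 18% higher. The median log2 change of the 10 genes was 0.06 in KO cells, against 0.03 over all genes, and −0.94 in WT cells, against −0.02 over all genes. Leaving out WT FBS replicate 1 gave the same count of 8 lower and 1 higher in WT cells, with a median of −1.16, while 58.9% of all genes were then called. In KO cells 3 rather than 6 were called without KO paused replicate 3, with 5212 rather than 6518 of all genes.

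**Figure D2:**
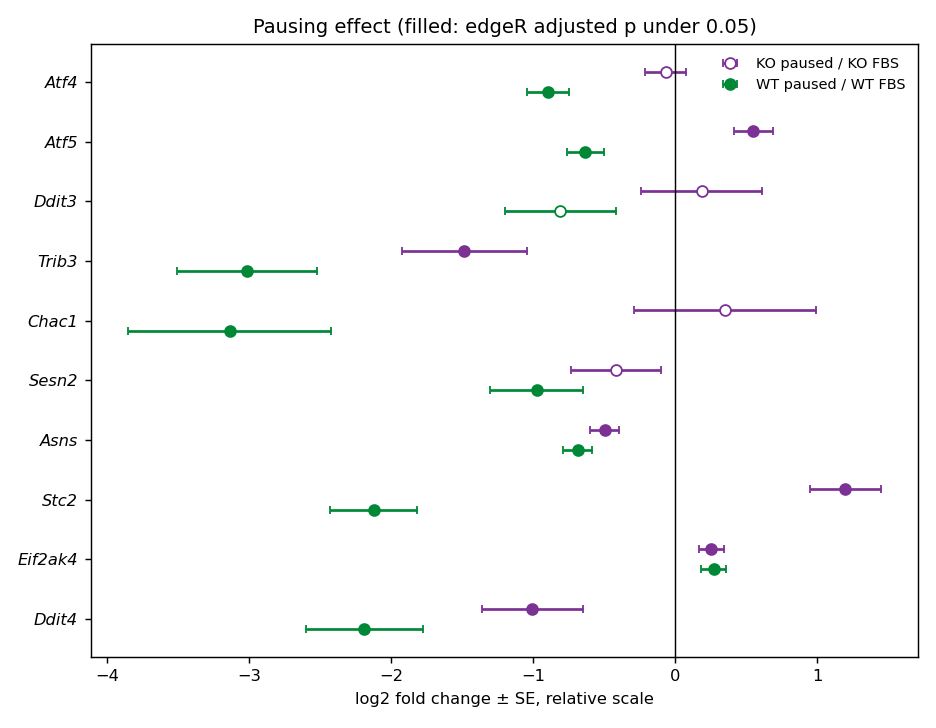
Log2 fold change on pausing (horizontal axis, ± SE, n = 3 per group) of each gene in KO cells (purple, upper) and WT cells (green, lower), relative to the typical gene. In WT cells 8 of 10 lie below 0 and are called, and in KO cells Stc2 (1.20) and Atf5 (0.55) lie above 0, though per cell Atf5 gave −0.23.

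The test of the difference between both pausing effects, KO minus WT, called 4 of the 10 genes (Atf4, Atf5, Chac1, Stc2), all higher. Of all genes 17.9% were called, 9.61% higher and 8.26% lower. The count of lower members was 0 by edgeR, 0 also at an unadjusted p under 0.05, and 0 with DESeq2. The median difference was 1.09 over the 10 genes and 0.09 over all genes. Without WT FBS replicate 1 the count was 7, with Trib3, Sesn2 and Ddit4 added, while 41.3% of all genes were called. Both pausing effects have their own controls, but this difference and each genotype comparison draw on the same 12 libraries.

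Between genotypes when paused, 2 genes were higher in KO cells (Stc2, Ddit4) and 3 lower (Atf5, Ddit3, Asns), where 51.8% of all genes were called, 27.9% higher and 23.9% lower. The ranges did not overlap for Chac1, Sesn2, Stc2 and Ddit4, higher in KO paused cells, and Atf4, Atf5, Ddit3 and Asns, lower in them. The share of all genes whose ranges lay apart was not counted, so this describes single genes and not the set. A fit of the paused groups alone, which leaves out the spread of the WT FBS libraries, called 9 of 10 members and 9701 of all genes, against 5 members and 7917 genes with all groups. It was 8 members and 7965 genes without WT FBS replicate 3. In FBS, 6 genes were lower in KO cells (Atf4, Atf5, Ddit3, Chac1, Asns, Stc2), where 57.8% of all genes were called, 29.4% lower and 28.4% higher. The count of higher members was 0 by edgeR, 0 at an unadjusted p under 0.05 and 0 with DESeq2.

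**Figure D3:**
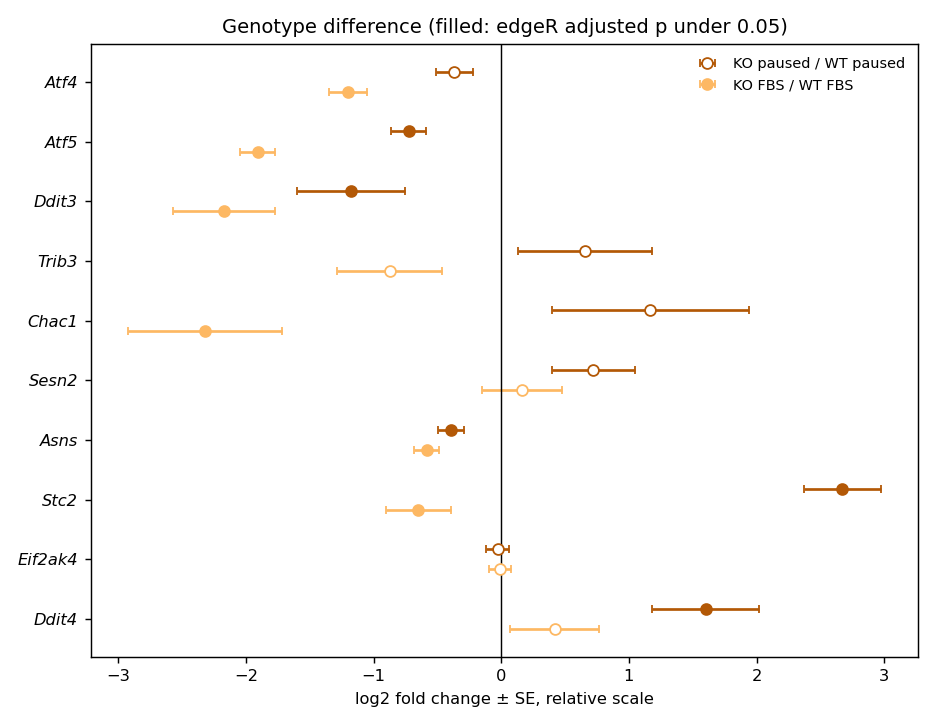
Log2 difference between KO and WT cells (horizontal axis, ± SE, n = 3 per group) for each gene when paused (dark, upper) and in FBS (light, lower), relative to the typical gene. Atf4, Atf5, Ddit3 and Asns lie below 0 in both conditions, Stc2 lies at 2.67 when paused and −0.65 in FBS, and Eif2ak4 lies near 0.

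Equal numbers of cells went into each RNA preparation and synthetic ERCC RNAs were added to the RNA, so counts could also be scaled per cell, without correction for losses before that step. Counts assigned to mouse genes outnumbered ERCC counts 36.5- to 40.3-fold in KO paused, 47.4- to 93.5-fold in KO FBS, 29.0- to 37.4-fold in WT paused and 72.4- to 74.6-fold in WT FBS cells. On this scale the median log2 change of all genes with pausing was −0.72 in KO cells and −1.05 in WT cells. Fewer messages of a gene per cell and fewer cells bearing it cannot be told apart in bulk RNA. In KO cells 5 of the 10 genes were lower (Atf4, Trib3, Sesn2, Asns, Ddit4), where 48.2% of all genes were called, 45.7% lower and 2.45% higher. In WT cells all 10 were lower, where 69.9% of all genes were called, 68.8% lower and 1.15% higher, and 9 were called without WT FBS replicate 1, with 64.4% of all genes. The median of the 10 genes was −0.69 in KO cells and −1.97 in WT cells. In KO cells that lies near the shift of all genes, and in WT cells 9 of the 10 lay below it, with Eif2ak4 above it. Trib3 stood at 1.39, 2.07 and 1.39 counts per 10000 ERCC counts in KO paused and 5.45, 8.89 and 7.71 in KO FBS cells, and at 0.819, 0.593 and 0.792 in WT paused and 4.12, 9.45 and 25.8 in WT FBS cells. The Atf4 value in KO cells (−0.83 ± 0.32, adjusted p = 0.0246, edgeR) was lost on leaving out any KO paused library, replicate 2 or 3 of KO FBS, or replicate 2 of WT FBS cells (−0.90 to −0.59, adjusted p = 0.0509 to 0.142). An error in the ERCC scaling of a library moves every gene in it, so these calls are not independent.

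**Figure D4:**
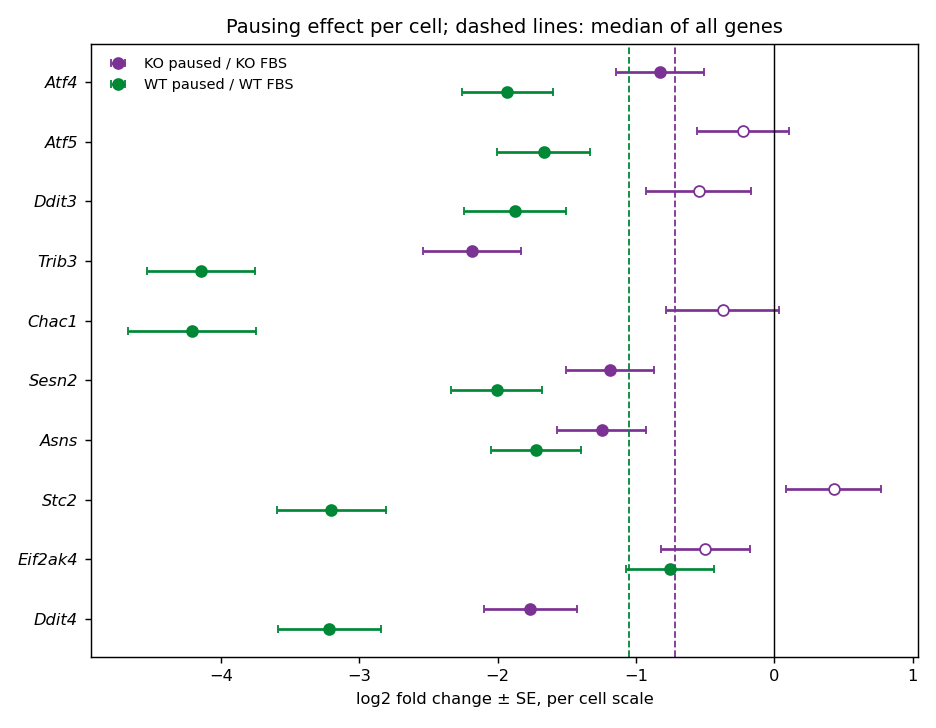
Log2 fold change on pausing per cell (horizontal axis, ± SE, n = 3 per group), from ERCC scaling, in KO cells (purple, upper) and WT cells (green, lower), with dashed lines at the medians of all genes (−0.72 and −1.05). In WT cells Trib3 and Chac1 lie lowest, and in KO cells Stc2 is the only gene above 0.

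Between genotypes, the per-cell scale shifted the median of all genes by 0.39 when paused and 0.05 in FBS. When paused, 5 genes were higher in KO cells (Trib3, Chac1, Sesn2, Stc2, Ddit4), where 32.8% of all genes were called, 27.1% higher and 5.62% lower. The largest of these was Stc2 (3.07 ± 0.39), and Ddit4 followed at 1.98 ± 0.36. Chac1 (1.52) was lost on leaving out replicate 1 or 2 of KO FBS, or replicate 1 of WT paused cells (1.24 to 1.53, adjusted p = 0.106 to 0.267), Trib3 (1.11) without WT paused replicate 2 or KO paused replicate 2 (0.98 and 0.90), and Sesn2 (1.08) without WT paused replicate 1 (0.87). Atf4 (0.00 ± 0.32) and Asns (−0.02 ± 0.32) lay at 0 (adjusted p = 0.997 and 0.972, edgeR). In FBS, 5 genes were lower in KO cells (Atf4, Atf5, Ddit3, Trib3, Chac1), where 28.9% of all genes were called, 9.81% lower. Of these, Atf4 (−1.11) was lost without WT FBS replicate 3 (−0.80, adjusted p = 0.09), and Chac1 (−2.32) without WT FBS replicate 3 (−0.68) or KO FBS replicate 1 or 2 (−2.11 and −2.47). Ddit3 (−2.13) was −1.47 without WT FBS replicate 1. Trib3 (−0.85) kept its call only without WT FBS replicate 1, WT paused replicate 1 or KO FBS replicate 2, and was 0.09 without WT FBS replicate 3. With the replicate block, Asns (−0.53) and Ddit4 (0.62) were also called in FBS and Ddit3 (−0.81) when paused (adjusted p = 0.0406, 0.0353 and 0.0291).

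The difference between the pausing effects per cell was called for Atf5 (1.44 ± 0.47), Trib3 (1.96 ± 0.50), Chac1 (3.84 ± 0.61) and Stc2 (3.63 ± 0.52), all higher, where 4.7% of all genes were called, 3.04% higher. Atf5 lost this call in 10 of the 12 fits with a library left out (adjusted p = 0.0602 to 0.262), all but those without WT FBS replicate 1 or KO FBS replicate 2. Chac1 lost it on leaving out replicate 1 or 2 of KO FBS cells (3.64 and 4.0) and was 2.19 without WT FBS replicate 3. Trib3 lost it without KO paused replicate 2 (1.75) or WT FBS replicate 3 (1.02), and with DESeq2 (1.97, adjusted p = 0.183). Stc2 stayed called with any library left out. With the replicate block, Atf4 (1.19), Ddit3 (1.27) and Ddit4 (1.42) were also called (adjusted p = 0.00351, 0.0474 and 0.00302, edgeR).

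Per kilobase of exon, Atf4 was the most abundant of the 10 messages in KO paused (37.5 CPM per kb), KO FBS (39.3), WT paused (48.4) and WT FBS cells (90.2). Asns followed at 27.8, 39.2, 36.5 and 58.7 CPM per kb in the same order, and in KO FBS cells the pair differed by less than their SDs of 5.54 and 1.12. Sesn2 came next by mean in every group, at 13.7, 18.2, 8.27 and 16.1 CPM per kb, and in WT paused cells it was within its SD of Atf5 (7.95). In WT FBS cells its SD of 8.93 also spanned Atf5 (12.2), Trib3 (8.90) and Ddit4 (8.19). The lowest level was that of Ddit3 in both KO groups (1.07 and 0.930 CPM per kb, against 1.35 and 1.06 for Chac1 and, in KO FBS cells, 0.945 for Stc2), with Stc2 lowest in WT paused (0.347) and WT FBS cells (1.49). In KO FBS cells the levels of Ddit3, Stc2 and Chac1 lay within 1 SD of a neighbour. In WT FBS cells Stc2 lay within the SDs of Ddit3 (4.47 ± 3.24) and Chac1 (5.11 ± 5.72). The spread over replicates was widest in WT FBS cells, with a coefficient of variation of 112% for Chac1, 76.3% for Trib3, 72.4% for Ddit3, 63.3% for Ddit4 and 55.6% for Sesn2, against at most 16.9% in KO FBS cells.

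Other known targets of Atf4 were taken as a list of 42 genes, of which 39 were tested. For the lists that follow, the shares of all genes called on pausing are those given above, 42.7% in KO and 38.2% in WT cells, and were 59.8% and 58.9% without WT FBS replicate 1. In KO cells pausing lowered 9 and raised 2 of them, with a median of −0.28, and in WT cells it lowered 27 and the other 12 were not called, with a median of −0.95. Psat1, an enzyme of serine synthesis, averaged 84.2 ± 2.74 CPM in KO paused and 148 ± 10.0 CPM in KO FBS cells, and 51.7 ± 4.25 CPM in WT paused and 329.6 ± 135 CPM in WT FBS cells (SD, n = 3 each). Phgdh, the first enzyme of that pathway, averaged 32.8 ± 1.16 CPM in WT paused and 134 ± 55.8 CPM in WT FBS cells, a fall of −2.04 ± 0.25 on the log2 scale. Gars, which charges glycine transfer RNA, also fell in WT cells (−1.17 ± 0.13). The genes that rose in KO cells were Cebpg (0.93 ± 0.10), which pairs with Atf4 on DNA, and Sars (0.81 ± 0.13), which charges serine transfer RNA. Per cell, their changes were 0.21 and 0.04. Nupr1, a stress-induced chromatin protein, rested on 1 count in WT paused and 299 counts in WT FBS cells, a ratio of 0.00573 (exact 95% interval 0.000145 to 0.0322, counting error only).

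Of all genes, 17.9% were called for the difference between pausing effects, 9.61% higher and 8.26% lower. The pausing effects of the Atf4 targets differed between genotypes in 13 of 39, all higher in KO cells, with a median of 0.88. Among them were Sars (1.90 ± 0.19), Psat1 (1.86 ± 0.32), Cebpg (1.00 ± 0.15) and Gars (0.88 ± 0.18). Without WT FBS replicate 1 the count was 25 higher and 3 lower, with 41.3% of all genes called. Without that library pausing lowered 17 and raised 3 of the targets in KO cells and lowered 34 and raised 1 in WT cells. In KO paused against WT paused cells 51.8% of all genes were called, 27.9% higher and 23.9% lower. Of the targets 9 were higher and 6 lower. Sars (1.20 ± 0.13) and Aldh1l2 (1.56 ± 0.29), an enzyme of mitochondrial folate metabolism, were among the higher. Cth (−2.52 ± 0.38), which makes cysteine, was among the lower. Without WT FBS replicate 1 these counts were 14 higher and 11 lower, with 65.2% of all genes called. In KO FBS against WT FBS cells 57.8% of all genes were called, 29.4% lower and 28.4% higher. Of the targets 24 were lower and 2 higher, with a median of −0.70, all with WT FBS replicate 1 included. Without that library 68.6% of all genes were called, and the counts of targets are not given. The arginine and lysine transporter Slc7a1 (−2.31 ± 0.20) and the endoplasmic reticulum protein Herpud1 (−1.83 ± 0.34) were among the lower, and Aldh1l2 (1.36 ± 0.27) and the glutamine transporter Slc38a2 (0.53 ± 0.13) were the higher ones.

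**Figure D5:**
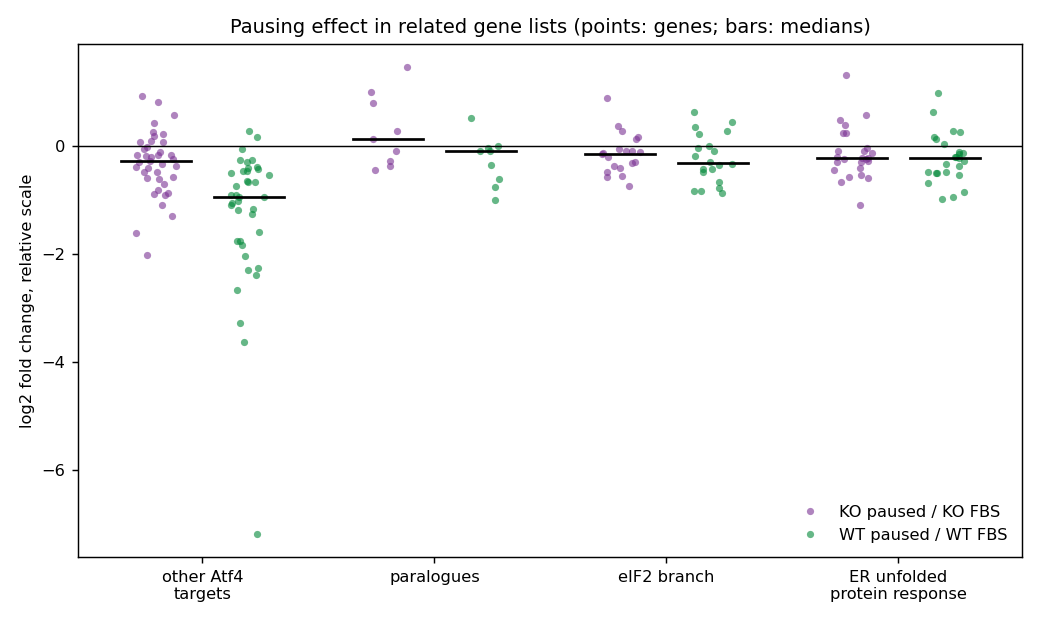
Log2 fold change on pausing, relative to the typical gene, of the tested genes of 4 lists in KO cells (purple, left) and WT cells (green, right), with bars at the medians. The other Atf4 targets have medians of −0.28 in KO and −0.95 in WT cells, and the lowest point is Nupr1, whose fitted value rests on 1 count in WT paused cells.

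Of 10 paralogues 9 were tested, and pausing raised 3 and lowered 1 in KO cells and lowered 3 in WT cells, relative to the typical gene. When WT FBS replicate 1 was left out, it raised 4 and lowered 3 in KO cells and raised 2 and lowered 4 in WT cells. Ddit4l, a paralogue of Ddit4, had 25.3, 17.8 and 15.6 CPM in KO paused, 7.43, 6.50 and 7.44 CPM in KO FBS, 1.66, 2.51 and 2.35 CPM in WT paused, and 1.64, 5.36 and 5.34 CPM in WT FBS cells. Every KO library lay above every WT library. Ddit4l rose on pausing in KO cells (1.45 ± 0.28) and fell in WT cells (−1.0 ± 0.35), and these effects differed by 2.45 ± 0.45 (adjusted p = 0.00326, edgeR). Per cell its change in KO cells was 0.71. Trib2, a paralogue of Trib3, had 18.4, 15.5 and 20.6 CPM in KO paused, 8.84, 9.32 and 9.23 CPM in KO FBS, 2.73, 4.47 and 3.43 CPM in WT paused, and 2.31, 6.10 and 6.85 CPM in WT FBS cells. It rose in KO cells (0.99 ± 0.25, per cell 0.23) where Trib3 fell, and it was higher in KO paused than in WT paused cells (2.36 ± 0.29, adjusted p = 2.42e-05). Sesn3, a paralogue of Sesn2, was higher in KO cells when paused (1.09 ± 0.19) and in FBS (1.44 ± 0.19). Of the other eIF2 kinases, Eif2ak2 was lower in KO cells when paused (−0.76 ± 0.13) and in FBS (−0.43 ± 0.12), and Eif2ak3 passed no test on the relative scale, with pausing at 0.28 ± 0.19 in KO and 0.00 ± 0.20 in WT cells. Without WT FBS replicate 1 these were 0.26 and 0.31 (adjusted p = 0.0137 and 0.0118), and both genotype differences of Eif2ak3 also passed (0.21 when paused and 0.26 in FBS, adjusted p = 0.0472 and 0.0211). Per cell it fell on pausing in WT cells (−1.02, adjusted p = 0.00392), and this was lost without that library (−0.73, adjusted p = 0.057).

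Upstream of Atf4, 20 genes of the eIF2 branch were tested, and pausing lowered 6 and raised 1 in KO cells and lowered 10 and raised 2 in WT cells. When WT FBS replicate 1 was left out, it lowered 10 and raised 3 in KO cells and lowered 13 and raised 5 in WT cells. The eIF2 subunit Eif2s3x fell in KO cells (−0.75 ± 0.10) and WT cells (−0.86 ± 0.10), as did Eif2b4, a subunit of the eIF2 exchange factor (−0.56 ± 0.11 and −0.77 ± 0.11). Those that rose were the gene counted as 0610009O20Rik, which is Dele1, a relay of mitochondrial stress, in KO cells (0.88 ± 0.15, per cell 0.14), and in WT cells Dnajc3 (0.63 ± 0.09, per cell −0.39), an inhibitor of eIF2 kinases, and Gcn1l1 (0.43 ± 0.16, per cell −0.60), the partner of GCN2. The Gcn1l1 value was 0.21 without WT FBS replicate 1 (adjusted p = 0.0173), and per cell it then passed as a fall (−0.83, adjusted p = 0.0287). Impact, an inhibitor of GCN2, was lower in KO paused than in WT paused cells (−1.40 ± 0.25). Nck1, an adaptor tied to eIF2 dephosphorylation, was higher in KO cells when paused (1.19 ± 0.11) and in FBS (1.28 ± 0.10). The difference of pausing effects was called in 1 gene upward, Abcf1 (0.55 ± 0.17), and 1 downward, Dnajc3 (−0.73 ± 0.13), and in 11 upward and 2 downward without WT FBS replicate 1. Of all genes 17.9% were called for this difference, and 41.3% without that library.

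Of 25 genes of the unfolded protein response of the endoplasmic reticulum, pausing raised 4 and lowered 5 in KO cells and raised 2 and lowered 3 in WT cells, relative to the typical gene. Leaving out WT FBS replicate 1 gave 4 raised and 14 lowered in KO cells and 2 raised and 17 lowered in WT cells. The list's medians were −0.22 in KO and −0.23 in WT cells, and −0.25 and −0.45 without that library. Derl3, which helps to clear misfolded proteins, was among the genes that rose in KO (1.31 ± 0.36) and WT cells (0.98 ± 0.34), while per cell it gave 0.55 and −0.09 (adjusted p = 0.202 and 0.82). In WT cells its change was 1.59 without WT FBS replicate 1, and 0.54 per cell (adjusted p = 0.193). Of 14 tested transcription factors that can pair with Atf4, pausing raised 5 and lowered 2 in KO cells and lowered 4 in WT cells on the same scale. Leaving out WT FBS replicate 1 gave 6 raised and 5 lowered in KO cells and 3 raised and 5 lowered in WT cells. The 4 lowered in WT cells with all libraries were Atf3 (−1.84 ± 0.47), Cebpb (−1.26 ± 0.24), Jun (−1.21 ± 0.24) and Cebpd (−1.04 ± 0.23). Of 19 targets of p53, which also induces Sesn2 and Ddit4, 11 were higher and 2 lower in KO paused than in WT paused cells, where 27.9% of all genes were higher and 23.9% lower. Cdkn1a, the cell cycle inhibitor, was among the higher (2.05 ± 0.29), and Gadd45a and Pmaip1 were the lower ones (−0.70 ± 0.16 and −0.61 ± 0.15). The median of the p53 targets was 0.56 in that comparison and 0.23 for KO FBS against WT FBS cells. For pausing it was −0.17 in KO and −0.46 in WT cells. A part of p53 in the levels of Sesn2 and Ddit4 was not tested.

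Likeness of pattern was measured as the root-mean-square difference of centred log2 CPM over the 12 samples, among 14086 other genes. The genes most like Atf4 were Mthfd1l (0.134), Cars (0.153), Aars (0.153), Nars (0.157) and Rpa1 (0.157), against a root-mean-square of 0.523 for Atf4 about its own mean. Mthfd1l acts in mitochondrial folate metabolism, and Cars, Aars and Nars charge transfer RNAs. Trib3 was nearest to Mthfd2 (0.364), Psat1 (0.461) and Psph (0.496), and Chac1 to Pck2 (0.498), Wt1 (0.518) and Slc6a9 (0.549). Stc2 was nearest to Prph (0.340), Fam159a (0.476) and Abhd15 (0.481), none of which is in the lists above. The single nearest gene was Bora for Atf5 (0.178), Fgfr4 for Ddit3 (0.293) and Dctpp1 for Sesn2 (0.171). For Asns it was Nup43 (0.0844), for Eif2ak4 Tnrc6a (0.0750) and for Ddit4 Nes (0.266). Within the set, Atf4 and Asns were closest (0.247), then Atf4 and Atf5 (0.379), and Ddit3 and Ddit4 were farthest apart (1.73). These are descriptions over shared libraries, without a test.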

How the data were processed

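Per the labels' protocols, libraries of polyadenylated RNA were made with a directional kit from equal cell numbers, with ERCC RNAs added to the RNA. The authors deposited raw counts by gene symbol, 92 rows of ERCC RNAs among them, and log2 values that per the file headers were normalized to cell number. The submitters' processing notes name edgeR 3.32.1, Subread 1.5.0, featureCounts, Trim Galore 0.4.0 and build mm10. No aligner, annotation or strand setting is given in the sources used here. The deposited log2 values equalled log2(count + 0.5) plus 1 constant per library (3390 well-counted genes, largest SD 6.59e-10) and entered no test.

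The counts were tested with edgeR 4.0.16 (R 4.3.3): robust quasi-likelihood fit of 4 group means over 12 samples, filterByExpr (minimum count 10, total 15), Benjamini-Hochberg adjustment over all 15281 genes, threshold 0.05. Library size was the gene total with TMM factors (relative scale) or the ERCC total with TMM factors over ERCC rows (per cell). The relative-scale edgeR fit was run on simulated counts with known changes in WT paused cells and the same dispersion for every gene. Known changes per cell or in genes with few counts, and a library that stands apart, were not simulated. CPM are TMM-scaled. Alternatives were other size factors, no filter, DESeq2 1.42.0, a replicate block, the 2 groups alone, and each library left out. Same-numbered samples deviated together in each comparison of 2 groups (correlations from 0.103 to 0.383, 3 pairs each), so the block is given beside a result where it changes a call. Gene positions and exon lengths are from GENCODE vM21.

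The named genes are the 10 members, their paralogues, Mettl3, for each other list up to 4 called genes per comparison with the lowest p plus called genes that went against their list, and the genes most like a member. Not all are printed, and that choice followed their values. The members and lists were chosen with earlier results of these data known.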

Additional observations from a re-analysis of the deposited data

Results flagged for a closer look

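The pausing effect differed between genotypes by the test of the difference itself (KO minus WT, relative log2, edgeR, all 12 libraries) for 4 of the 10 genes. Stc2 gave 3.32 ± 0.40 (adjusted p = 0.000176), with a rise in KO and a fall in WT cells, and stayed called with any library left out. Atf5 gave 1.18 ± 0.19 (adjusted p = 0.00144), also with a rise in KO and a fall in WT cells. Scaled per cell, neither gene passed the threshold in KO cells. Stc2 gave 0.43 ± 0.34 there and Atf5 −0.23 ± 0.33 (adjusted p = 0.281 and 0.578, edgeR). The per-cell difference for Atf5 (1.44 ± 0.47, adjusted p = 0.0486) lost its call in 10 of the 12 fits with a library left out. Atf4 gave 0.83 ± 0.21 (adjusted p = 0.0166), where pausing passed the threshold in WT cells and not in KO cells on this scale. Per cell, Atf4 also fell in KO cells (−0.83 ± 0.32, adjusted p = 0.0246). The per-cell difference of effects for Atf4 missed the threshold (1.10 ± 0.45, adjusted p = 0.161). Chac1 gave 3.49 ± 0.97 (adjusted p = 0.0267) on few counts, was 2.07 without WT FBS replicate 3 (adjusted p = 0.0139), and lost its call on leaving out replicate 1 or 2 of KO FBS or replicate 1 or 3 of either paused group (adjusted p = 0.0522 to 0.0811). In WT FBS replicate 1, Trib3, Chac1, Sesn2 and Ddit4 differed from the mean of their group mates by −1.96, −2.75, −1.72 and −2.16 log2 units, and Ddit3 by 1.63.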

How the results depend on the processing

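Over the values of single genes and all alternatives, 1529 kept their side of the threshold, 112 lost it, 38 passed it and 1 with a call changed sign. Some of the 1529 changed sign while uncalled in both fits, such as Sesn2 in KO FBS against WT FBS cells, relative. Sesn2 gave 0.16 with all libraries and −0.18 without WT FBS replicate 1. The 1 that changed sign with a call was Trib3 in KO FBS against WT FBS cells per cell, −0.85. It ranged from −1.26 (without WT FBS replicate 1) to 0.0924 (without WT FBS replicate 3) over the fits that leave out a library. With only the 2 groups compared, the members called were 9 rather than 5 (KO paused against WT paused, relative) and 3 rather than 5 (KO FBS against WT FBS, per cell), and all genes called were 2769 rather than 5832 (WT pausing, relative) and 2916 rather than 4416 (KO FBS against WT FBS, per cell). With only the 2 groups, calls were lost for Sesn2 and Eif2ak4 in WT pausing and Stc2 in FBS (relative, adjusted p = 0.125, 0.157 and 0.132), and for Atf4 in KO pausing and Atf4 and Trib3 in FBS (per cell, 0.0605, 0.0515 and 0.188). The same fits gained Atf4, Trib3, Chac1 and Sesn2 in KO paused against WT paused cells (relative, adjusted p = 0.000378, 0.0166, 0.000871 and 1.12e-05, edgeR). They also gained Sesn2 in KO pausing (relative, 0.000779) and Ddit3 in KO paused against WT paused cells (per cell, 0.0159). DESeq2 gained Atf4 in KO paused against WT paused cells (relative, adjusted p = 0.0396). DESeq2 called 2 rather than 5 (KO paused against WT paused, per cell), losing Trib3, Chac1 and Sesn2 (adjusted p = 0.129, 0.166 and 0.0894), and also lost Trib3 per cell in KO FBS against WT FBS cells (adjusted p = 0.276) and in the difference of pausing effects (0.183). Without the low-count filter, relative calls were lost for Sesn2 in WT pausing (0.073), Eif2ak4 and Ddit4 in KO pausing (0.0529 and 0.0674) and the Chac1 difference of effects (0.0658), and per cell for the Atf5 difference (0.0616). Other scaling factors lost Eif2ak4 in KO pausing (0.0688) and Stc2 in FBS (0.0535), both relative, and per cell Trib3 in FBS (0.062) and the Atf5 difference (0.0738). In comparisons of 2 groups same-numbered samples deviated together, but not always the most. WT FBS replicate 2 correlated more with KO FBS replicate 3 (0.274) than with KO FBS replicate 2 (0.119). The replicate block changed no call in these comparisons beyond those given above. For the difference of pausing effects, 16 of 18 same-numbered pairs over all groups correlated above 0.1, and 10 of 12 samples correlated best with their own number. Most same-numbered samples thus deviated together, though not every pair did, and the main fits hold no replicate term. The block then called 7 rather than 4 members and 1970 rather than 718 genes per cell. The cause of these changes was not tested.

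With each library left out, relative counts of members and of all genes were 3 to 7 and 5071 to 9349 for pausing in KO, 7 to 9 and 4171 to 9219 for pausing in WT, 4 to 8 and 6720 to 10203 for KO paused against WT paused, 5 to 6 and 7725 to 10723 for KO FBS against WT FBS, and 3 to 7 and 1819 to 6463 for the difference of pausing effects. Per cell they were, in the same order, 4 to 7 and 4112 to 10459, 9 to 10 and 8105 to 11505, 3 to 5 and 3608 to 6293, 3 to 6 and 3300 to 5294, and 2 to 6 and 397 to 1718. Chac1 and Trib3 in WT paused cells rest on 8 to 19 and 16 to 53 counts per library, which limits their precision.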
